A study of Homo sapiens with 9 samples.

Results

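The expression of 9 genes that write, read and erase DNA methylation was examined in parental RKO cells and in clones of RKO with a targeted DIP2C gene. The genes were taken by name from the deposited tables. They are the methyltransferases DNMT1, DNMT3A and DNMT3B, the maintenance factor UHRF1, the dioxygenases TET1, TET2 and TET3, the glycosylase TDG and the methyl-CpG binding protein MBD2. All 9 were found among the 23619 gene symbols of the tables, and all 9 were among the 15532 genes left after removal of those with low counts. In the GENCODE annotation on GRCh37, which has the coordinates of hg19, the genes lie at chr19:10244018-10341962 (minus strand) for DNMT1, chr2:25450724-25565459 (minus strand) for DNMT3A, chr20:31350191-31397165 (plus strand) for DNMT3B, chr19:4903092-4962165 (plus strand) for UHRF1, chr10:70320094-70454244 (plus strand) for TET1, chr4:106067032-106200973 (plus strand) for TET2, chr2:74212037-74335303 (plus strand) for TET3, chr12:104359600-104382652 (plus strand) for TDG and chr18:51677976-51751039 (minus strand) for MBD2.

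The RKO line comes from a human colorectal carcinoma, and 9 RNA sequencing libraries of it were analysed, 1 per sample, each from cells grown for 48 h. Parental RKO was sequenced in 2 samples, DIP2C-/- clones in 2 samples (E3 and C10) and DIP2C+/- clones in 5 samples (A6-C9, A9-A12, F6-A7, G1-A5 and H9-A4). Values of the DIP2C+/- clones are given in this order throughout. The labels give each its own clone name, but the study's text describes fewer heterozygous clones and does not match them to these names, so whether all of them arose separately is not settled, and the standard errors and p-values treat them as separate. The clones had part of DIP2C exon 9 removed with a recombinant adeno-associated virus, were selected with Geneticin, lost the resistance cassette by infection with a Cre-expressing adenovirus and were grown from single cells, and the DIP2C-/- clones came from further targeting of a DIP2C+/- clone. The DIP2C-/- clones are therefore not independent of each other, and no clone that went through targeting with DIP2C intact was analysed here, so loss of DIP2C and the history of selection and cloning cannot be told apart in any comparison with parental cells. The labels do not say whether the parental samples were separate cultures, and p-values measure only the spread between these samples.

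Methyl groups on cytosine are placed mostly where cytosine is followed by guanine, in the dinucleotide CpG. DNMT3A and DNMT3B set new methylation on unmethylated DNA, whereas DNMT1 copies existing methylation to the new strand after replication, and UHRF1 brings DNMT1 to hemimethylated sites. The TET enzymes oxidise 5-methylcytosine, and TDG cuts out the more oxidised bases so that base excision repair can restore an unmethylated cytosine. MBD2 binds methylated CpG and recruits the NuRD complex, which remodels and deacetylates chromatin. The study asked about this system because the DIP2 proteins carry a predicted binding domain for DMAP1, a partner of DNMT1. It also cited a sequence variant in DIP2B that had been associated with variation in DNA methylation between cell lines.

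The promoters of these genes are themselves made of sequence that can be methylated. RefSeq starts were found for all 9 genes in the promoter table of GRCh38.p14, and the 100 bases before the most upstream start are shown for the 3 genes that were low in most clones (DNMT3A, DNMT3B and TET3) and for DNMT1 and UHRF1, which were not. Each reads 5′ to 3′ on the strand of the gene, with CpG in capitals.

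DNMT3A: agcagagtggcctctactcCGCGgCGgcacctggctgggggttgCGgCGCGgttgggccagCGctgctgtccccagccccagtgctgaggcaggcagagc
DNMT3B: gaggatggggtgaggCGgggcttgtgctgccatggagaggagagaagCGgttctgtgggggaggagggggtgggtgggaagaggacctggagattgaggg
TET3: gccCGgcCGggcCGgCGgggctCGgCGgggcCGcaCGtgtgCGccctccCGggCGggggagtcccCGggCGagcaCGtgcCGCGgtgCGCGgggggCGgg
DNMT1: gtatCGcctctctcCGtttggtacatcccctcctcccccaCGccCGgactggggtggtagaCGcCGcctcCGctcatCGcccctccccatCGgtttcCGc
UHRF1: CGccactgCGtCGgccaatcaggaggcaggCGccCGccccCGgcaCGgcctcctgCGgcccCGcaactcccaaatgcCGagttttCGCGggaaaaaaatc

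In GRCh38.p14 the stretches lie at chr2:25342591-25342690 (minus strand) for DNMT3A, chr20:32779752-32779851 (plus strand) for DNMT3B, chr2:73984810-73984909 (plus strand) for TET3, chr19:10194954-10195053 (minus strand) for DNMT1 and chr19:4909401-4909500 (plus strand) for UHRF1. The 3 genes that were low in most clones did not share a CpG-rich stretch before the most upstream RefSeq start listed for each. These starts were not matched to the GENCODE gene starts, which are given above in the other build. The DNMT3B stretch may therefore lie inside the gene, and its counts may not describe the promoter at the annotated gene start. RefSeq starts numbered 6 for DNMT3A, 1 for DNMT3B, 2 for TET3, 1 for DNMT1 and 3 for UHRF1. Which of them RKO cells use was not tested. The TET3 stretch held 19 CpG, the DNMT3A stretch 7 and the DNMT3B stretch 2, against 10 for DNMT1 and 12 for UHRF1. Over the 250 bases before the start the counts were 37 for TET3, 12 for DNMT3A, 3 for DNMT3B, 21 for DNMT1 and 28 for UHRF1, and the median over 27326 promoters, 1 start per gene, was 10. The E2F-type letters TTTCCCGC, TTTCGCGC, TTTGCCGC and TTTGGCGC were searched on both strands from 250 bases before to 50 after the start. DNMT1 held GCGCGAAA from position -2, of which only the first 2 bases lie in the printed stretch, and UHRF1 held GCGGGAAA from position -14, counted from the start. No such letters were found in the windows of the other 7 genes, and 3.3% of all promoters (911) held a match. A match or its absence describes these letters only.

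The deposited values summed to between 14772593 and 21486483 per sample, and 3 counts corresponded to 0.148 to 0.193 CPM (estimated counts scaled to library totals with TMM factors), taken here as the limit of detection. DIP2C itself was at 61.0 and 70.9 CPM in the parental samples, at 17.4 and 22.8 CPM in E3 and C10, and at 33.6, 38.9, 47.0, 41.7 and 56.3 CPM in A6-C9, A9-A12, F6-A7, G1-A5 and H9-A4. All 7 clones lay below both parental samples, and H9-A4 was the clone nearest to them, at 85.4% of the parental mean. The value covers the whole gene and is no separate count of exon 9. H9-A4 also stood apart across genes, with a chi-square per degree of freedom of 118 to 138 against the other DIP2C+/- clones, where the other pairs within a group had 20.9 to 63.5. The colorectal marker CDX2 (15.6 to 19.8 CPM) and the epithelial keratin KRT18 (121 to 293 CPM) were present in every sample, while EPCAM (0.0511 to 3.79 CPM), CDH1 (0.313 to 0.698 CPM) and VIM (0.715 to 3.54 CPM) were low, and the summed markers of blood cells (0.868 to 1.77 CPM) and of fibroblasts and endothelium (3.50 to 7.92 CPM) stayed low.

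In parental RKO the maintenance machinery was the most highly expressed. Levels between genes were compared as CPM per kb of merged exons. UHRF1 was at 73.8 ± 6.04 CPM per kb (SD, n = 2) and DNMT1 at 22.4 ± 2.91. TDG followed at 12.8 ± 0.349, MBD2 at 10.01 ± 0.284 and TET3 at 8.61 ± 0.639. The de novo enzymes were lower, with DNMT3B at 3.599 ± 0.366 and DNMT3A at 1.21 ± 0.0755, and TET2 lay between them at 2.63 ± 0.156. TET1, at 0.0557 ± 0.00579 CPM per kb, was hardly expressed. No neighbours in this order overlapped between the parental samples. The order was the same when the longest transcript of each gene was used as its length, but the gap between DNMT1 and TDG grew, with 48.0 CPM per kb for DNMT1. In the DIP2C-/- clones the order changed at 2 places. MBD2 (10.1 ± 1.53 CPM per kb) and TDG (9.62 ± 0.639) overlapped, and TET2 (2.50 ± 0.0242) lay above DNMT3B (1.45 ± 0.184).

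**Figure D1:**
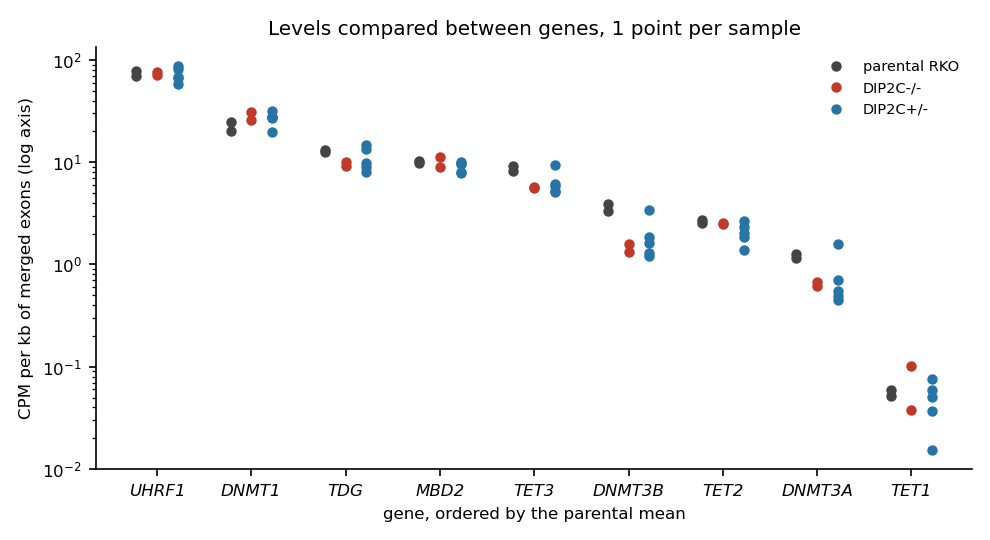
Level of each gene in CPM per kb of merged exons (log axis), 1 point per sample, with genes in the order of their parental mean and colours for parental RKO (n = 2), DIP2C-/- (n = 2) and DIP2C+/- (n = 5). UHRF1 and DNMT1 lie at the top and TET1 near 0.0557 in the parental samples, and the DNMT3B points of the DIP2C-/- clones lie below those of TET2.

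The de novo methyltransferases were low in 6 of the 7 clones. DNMT3B was at 23.0 and 26.5 CPM in the parental samples, at 9.10 and 10.9 CPM in E3 and C10, and at 8.94, 12.7, 8.35, 11.2 and 23.6 CPM in A6-C9, A9-A12, F6-A7, G1-A5 and H9-A4. The 6 clones other than H9-A4 lay below both parental samples, and H9-A4 lay between them. DNMT3A was at 15.9 and 17.4 CPM in the parental samples, at 8.45 and 9.22 CPM in E3 and C10, and at 6.74, 7.62, 9.81, 6.21 and 21.9 CPM in the DIP2C+/- clones in the same order. The same 6 clones were below both parental samples, and H9-A4 was above both.

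With all 9 samples in 1 edgeR fit, neither gene passed the test. DNMT3B differed from parental by a log2 fold change of -1.31 (SE 0.444, adjusted p = 0.337) in the DIP2C-/- clones and of -0.93 (SE 0.350, adjusted p = 0.399) in the DIP2C+/- clones, and DNMT3A by -0.91 (SE 0.537, adjusted p = 0.501) and -0.67 (SE 0.432, adjusted p = 0.573). H9-A4 enters the shared estimate of the spread. Without it, DNMT3B was 2.47-fold lower in DIP2C-/- clones (log2 -1.31, SE 0.261, edgeR adjusted p = 0.0167) and 2.40-fold lower in DIP2C+/- clones (log2 -1.27, SE 0.214, adjusted p = 0.00491). DNMT3A was then 2.195-fold lower in DIP2C+/- clones (log2 -1.13, SE 0.232, edgeR adjusted p = 0.0132), and in DIP2C-/- clones its difference of -0.91 (SE 0.278) missed the threshold with an adjusted p of 0.0958. A fit of the DIP2C-/- and parental samples only, which does not hold H9-A4, called both, with -1.32 (SE 0.187, edgeR adjusted p = 0.00242) for DNMT3B and -0.92 (SE 0.205, adjusted p = 0.0196) for DNMT3A. Leaving out H9-A4 was decided with its values known. In bulk RNA, a lower level in every cell and fewer cells that express a gene cannot be told apart.

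**Figure D2:**
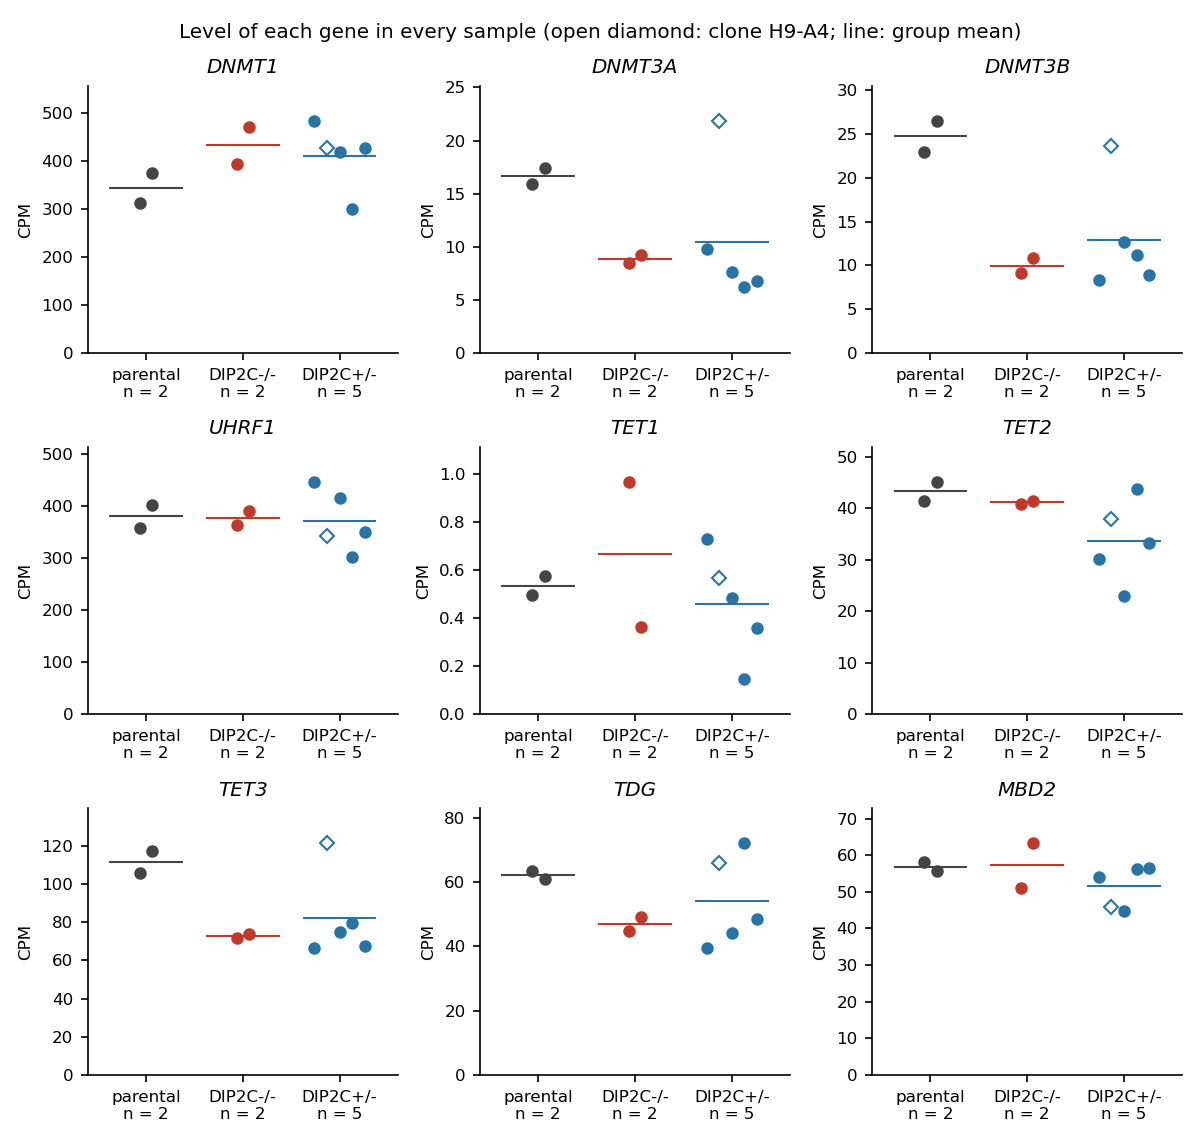
CPM of each of the 9 genes in every sample, 1 panel per gene, with a line at the mean of each group and an open diamond for clone H9-A4. In the panels of DNMT3A, DNMT3B and TET3 the 6 other clones lie below both parental samples and H9-A4 lies with or above the parental samples.

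The summed level of S phase genes, a reading of proliferation, varied with the same clones. The summed level of 14 S phase genes was 3917 and 3625 CPM in the parental samples, 3384 and 3239 CPM in E3 and C10, and 3279, 3179, 3488, 3379 and 4310 CPM in A6-C9, A9-A12, F6-A7, G1-A5 and H9-A4. It was below both parental samples in the same 6 clones, as were 11.5% of all genes tested, and above both in H9-A4. The sum is weighted to the genes with the highest CPM, such as MCM4 and MCM7. Single genes of the list such as CCNE2, RRM2 and CDC6 did not follow it. No single gene of the 14 passed the edgeR test in either direction with all samples or without H9-A4. In the fit of the DIP2C-/- and parental samples only, 1 of the 14 was called lower, where 6.82% of all 14381 genes were. It was GINS2, a subunit of the replicative helicase, with a log2 fold change of -0.58 (SE 0.138, edgeR adjusted p = 0.0267). The median of the 14 was -0.25 in DIP2C-/- and -0.09 in DIP2C+/- clones with all samples, and the part of S phase in the levels of DNMT3A, DNMT3B and TET3 was not tested.

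The maintenance pair was not called in any fit. DNMT1 was at 312 and 375 CPM in the parental samples, at 394 and 472 CPM in E3 and C10, and at 428, 418, 484, 300 and 428 CPM in A6-C9, A9-A12, F6-A7, G1-A5 and H9-A4. Here H9-A4 sided with the other clones, 6 of the 7 clones were above both parental samples, and G1-A5 was below both. The differences of 0.33 (SE 0.218, edgeR adjusted p = 0.548) in DIP2C-/- and 0.26 (SE 0.185, adjusted p = 0.611) in DIP2C+/- clones did not pass the test. UHRF1 was at 358 and 402 CPM in the parental samples, at 362 and 391 CPM in E3 and C10, and at 349, 414, 446, 301 and 343 CPM in the DIP2C+/- clones. The groups overlapped, and the log2 differences from parental were -0.01 (SE 0.196, edgeR adjusted p = 0.984) and -0.03 (SE 0.163, adjusted p = 0.956).

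The 2 de novo enzymes made up a smaller share of the methyltransferase transcripts in every clone than in the parental samples, a measure that needs no scaling between samples. DNMT3A and DNMT3B together made up 18.1% and 17.3% of the summed CPM per kb of the 3 DNMT genes in the parental samples, 7.03% and 6.84% in E3 and C10, and 6.04%, 8.10%, 5.77%, 9.63% and 15.3% in A6-C9, A9-A12, F6-A7, G1-A5 and H9-A4. All 7 clones lay below both parental samples, with H9-A4 nearest to them. In H9-A4 the lower share did not come with lower de novo enzymes. There DNMT3A (21.9 CPM) was above both parental samples, DNMT3B (23.6 CPM) lay between them, and DNMT1 (428 CPM) was above both. The ratio of DNMT1 to DNMT3B was 6.08 and 6.33 in the parental samples and 8.10 in H9-A4, and it was 11.98 to 25.9 in the other 6 clones. For DNMT3A the separation held in 6 clones and not in H9-A4, where the ratio of DNMT1 to DNMT3A was 17.5, below the parental 17.6 and 19.4, while the other 6 clones had 41.7 to 56.9. The ratio of DNMT1 to UHRF1 was 0.292 and 0.313 in the parental samples and 0.333 to 0.417 over the 7 clones, without overlap. These are 4 of 6 ratios that were computed, described here without a test. The other 2 overlapped between clones and parental samples. TET3 to TET2 was 3.2 and 3.3 in the parental samples and 2.2 to 4.2 over the clones. DNMT3A to DNMT3B was 0.346 and 0.327 in the parental samples and 0.277 to 0.586 over the clones. How often ratios of other gene pairs separate the clones was not computed.

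Of the erasers, TET3 followed the pattern of the de novo enzymes. It was at 106 and 117 CPM in the parental samples, at 71.6 and 74.0 CPM in E3 and C10, and at 67.6, 74.8, 66.6, 79.4 and 122 CPM in A6-C9, A9-A12, F6-A7, G1-A5 and H9-A4. The 6 clones other than H9-A4 were below both parental samples without overlap, and H9-A4 was above both. With all 9 samples the log2 differences were -0.61 (SE 0.264, edgeR adjusted p = 0.377) in DIP2C-/- and -0.44 (SE 0.215, adjusted p = 0.459) in DIP2C+/- clones. Without H9-A4, TET3 was 1.53-fold lower in DIP2C-/- clones (log2 -0.61, SE 0.148, edgeR adjusted p = 0.0398) and 1.54-fold lower in DIP2C+/- clones (log2 -0.63, SE 0.125, adjusted p = 0.0116), and the fit of the DIP2C-/- and parental samples only gave -0.63 (SE 0.128, adjusted p = 0.0139).

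TET2 and TDG varied from clone to clone and were not called in any fit. TET2 was at 41.5 and 45.2 CPM in the parental samples, at 40.9 and 41.5 CPM in E3 and C10, and at 33.2, 22.9, 30.2, 43.8 and 37.9 CPM in the DIP2C+/- clones. A9-A12 had the lowest level, at 52.9% of the parental mean, and the difference of the DIP2C+/- group was -0.37 (SE 0.217, edgeR adjusted p = 0.537). TDG was at 63.5 and 61.1 CPM in the parental samples, at 44.8 and 49.2 CPM in E3 and C10, and at 48.4, 44.1, 39.4, 72.2 and 66.1 CPM in the DIP2C+/- clones. Both DIP2C-/- clones and 3 of the 5 DIP2C+/- clones were below both parental samples, whereas H9-A4 and G1-A5 were above both. The log2 differences were -0.41 (SE 0.272, edgeR adjusted p = 0.557) and -0.20 (SE 0.225, adjusted p = 0.770).

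TET1 was near the limit of detection in every sample, with 3.46 to 15.02 estimated counts. Its levels were 0.496 and 0.574 CPM in the parental samples, 0.968 and 0.363 CPM in E3 and C10, and 0.357, 0.483, 0.731, 0.148 and 0.566 CPM in the DIP2C+/- clones. The groups overlapped and no difference was detectable at this depth (log2 0.29, SE 0.746, edgeR adjusted p = 0.907 in DIP2C-/- clones).

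The reader MBD2 had the narrowest range of the 9 genes, with a highest sample 1.41 times the lowest. It was at 58.1 and 55.8 CPM in the parental samples, at 51.1 and 63.4 CPM in E3 and C10, and at 56.6, 44.9, 53.9, 56.3 and 45.9 CPM in the DIP2C+/- clones. The groups overlapped, and the log2 differences were 0.01 (SE 0.183, edgeR adjusted p = 0.988) and -0.14 (SE 0.152, adjusted p = 0.757).

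**Figure D3:**
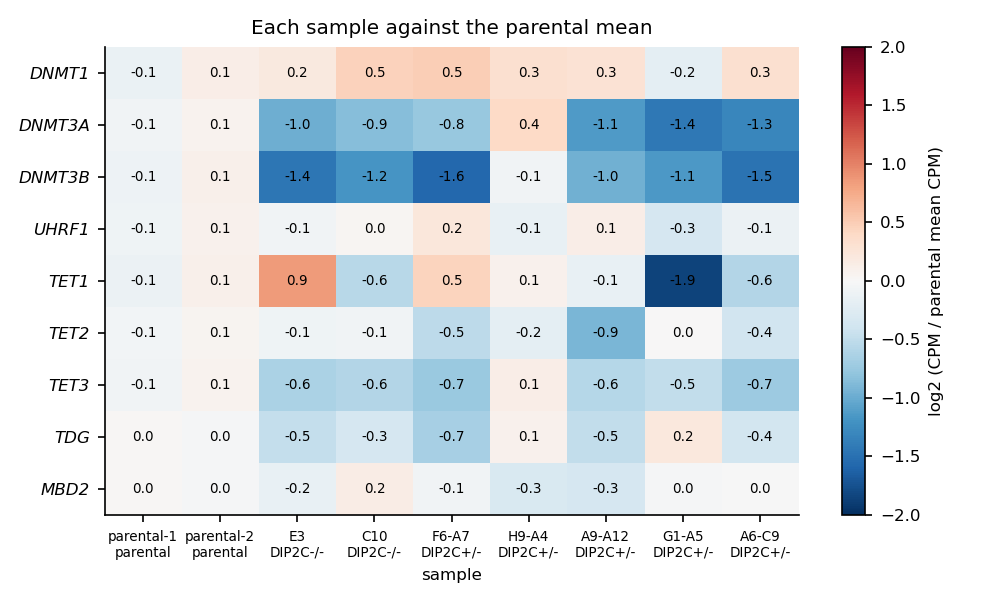
Log2 ratio of the CPM of each sample to the parental mean, genes in rows and samples in columns, with the value in each cell. DNMT3A, DNMT3B and TET3 are low in the 6 clones other than H9-A4, and the low value of TET1 in G1-A5 rests on 3.46 estimated counts.

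Counted over the 9 genes, no member passed the test with all 9 samples in any comparison, in edgeR or with the Wald test of DESeq2. In edgeR the unadjusted p was under 0.05 for 2 of the 9 genes in DIP2C-/- clones (DNMT3B and TET3), for 1 in DIP2C+/- clones (DNMT3B) and for 0 between the genotypes. Few genes of any kind were called by edgeR with all 9 samples, with 0.00644% of 15532 genes lower and 0% higher in DIP2C-/- clones and 0.0966% lower and 0% higher in DIP2C+/- clones. The Wald test called more, with 1.43% lower and 0.794% higher of 13346 genes in DIP2C-/- clones and 0.653% lower and 0.702% higher of 14249 genes in DIP2C+/- clones, the genes to which it gave an adjusted p. Without H9-A4, 2 of the 9 genes were called lower in DIP2C-/- clones, where 2.44% of 15390 genes were lower and 2.32% higher. In DIP2C+/- clones 3 of the 9 were called lower, where 3.58% of genes were lower and 4.37% higher. The fit of the DIP2C-/- and parental samples only called 3 of the 9 lower, where 6.82% of 14381 genes were lower and 5.74% higher. None of the 9 was called higher in these fits. All 7 clones lay below both parental samples for 0 of the 9 genes and for 5.54% of all genes tested. The 6 clones without H9-A4 lay below both for 3 of the 9 genes and for 11.5% of all, and above both for 0 of the 9 and for 12.4% of all. The median log2 fold change of the 9 genes was -0.07 in DIP2C-/- and -0.24 in DIP2C+/- clones with all samples, beside medians of 0.02 and 0.02 over all genes tested.

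**Figure D4:**
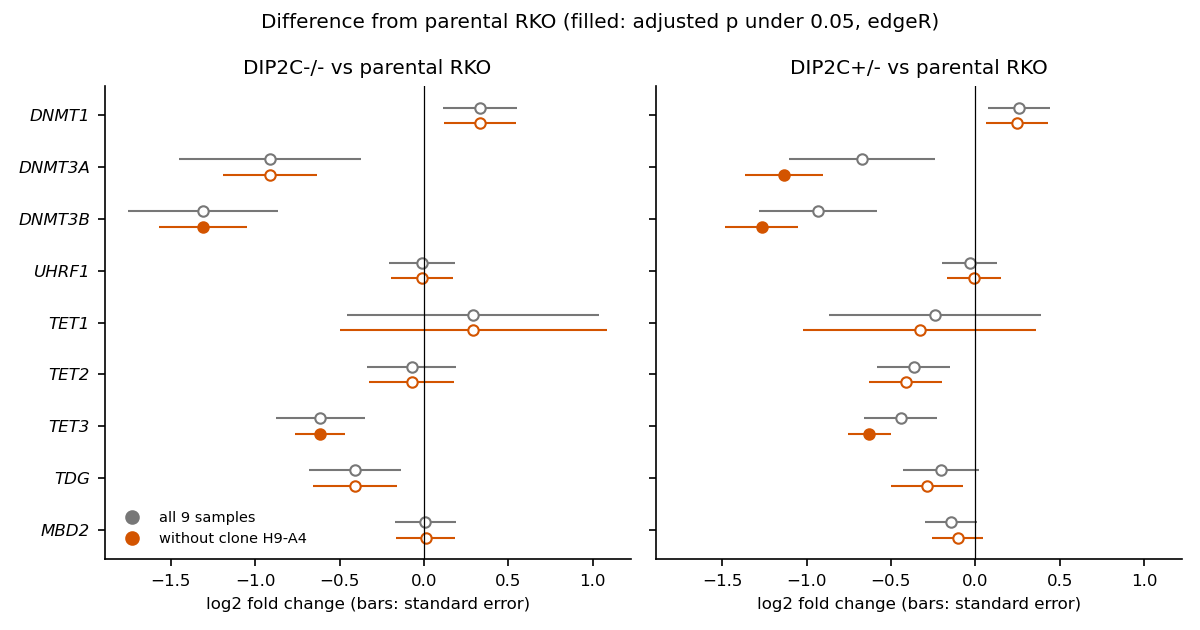
Log2 fold change from parental RKO for each gene in DIP2C-/- clones (left) and DIP2C+/- clones (right), with all 9 samples in grey and without clone H9-A4 in orange, standard errors as bars and filled points for an adjusted p under 0.05 in edgeR. DNMT3B and TET3 are filled in both panels without H9-A4 and DNMT3A in the DIP2C+/- panel only, and no grey point is filled.

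The genotypes were also compared directly. In this comparison edgeR did not call DIP2C itself, whose mean was 20.1 CPM in DIP2C-/- and 43.5 CPM in DIP2C+/- clones. A difference of that size can be missed here. The DIP2C-/- clones also went through further targeting and selection after a DIP2C+/- clone, so the dose of DIP2C and this history cannot be told apart. For both reasons the comparison cannot decide on the dose of DIP2C. Between DIP2C+/- and DIP2C-/- clones 0% of the genes tested were called by edgeR, both with all samples and without H9-A4, and 0.0388% by the Wald test, none of them a member. Without H9-A4 the log2 difference of DIP2C+/- from DIP2C-/- clones was 0.04 (SE 0.226, edgeR adjusted p = 0.981) for DNMT3B, -0.22 (SE 0.241, adjusted p = 0.861) for DNMT3A and -0.01 (SE 0.128, adjusted p = 0.987) for TET3. With H9-A4 these were 0.37 (SE 0.375), 0.24 (SE 0.454) and 0.17 (SE 0.222). DIP2C itself was at 30.5% of the parental mean in DIP2C-/- clones and at 66.0% in all 5 DIP2C+/- clones or 61.1% without H9-A4. DNMT3B was at 40.4% in DIP2C-/- clones and at 52.3% in all 5 DIP2C+/- clones or 41.5% without H9-A4.

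Other genes of the pathway were read from lists. Of 9 partners of the writers, 8 were tested and none was called in either direction in any fit. They included DMAP1, at 24.7 and 27.4 CPM in the parental samples, at 23.8 and 27.9 CPM in E3 and C10, and at 38.6, 21.7, 28.9, 27.3 and 24.0 CPM in the DIP2C+/- clones. The groups overlapped, and DNMT3L, the catalytically inactive partner of the de novo enzymes, stayed at 0.110 to 0.418 CPM. None of the 7 other methyl-CpG readers, the 11 NuRD subunits or the 13 cofactor supply genes was called with all samples or without H9-A4. Only some of the cofactor genes encode enzymes that make the methyl donor S-adenosylmethionine or 2-oxoglutarate. The fit of the DIP2C-/- and parental samples only called 6.82% of all 14381 genes lower and 5.74% higher. In it, MBD4 was called lower among the 7 readers (log2 -0.66, SE 0.169, edgeR adjusted p = 0.0361). Of the 13 cofactor genes, SHMT2 was called lower (log2 -0.74, SE 0.123, edgeR adjusted p = 0.0054) and IDH2 higher (log2 1.11, SE 0.169, adjusted p = 0.00364).

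Among the base excision and demethylation partners, no gene was called in edgeR with all 9 samples. Without H9-A4, of 13 tested genes 2 were called higher in both genotypes, where 2.32% (DIP2C-/-) and 4.37% (DIP2C+/-) of all genes were called higher, and 1 was called lower in DIP2C+/- clones, where 3.58% of all genes were. GADD45A, a stress response gene also linked to active demethylation, was at 18.8 and 22.8 CPM in the parental samples, at 55.7 and 83.3 CPM in E3 and C10, and at 92.4, 77.6, 67.9, 79.6 and 19.9 CPM in A6-C9, A9-A12, F6-A7, G1-A5 and H9-A4. The 6 clones were above both parental samples and H9-A4 lay between them, and without H9-A4 GADD45A rose 3.35-fold in DIP2C-/- (log2 1.74, SE 0.222, edgeR adjusted p = 0.00132) and 3.82-fold in DIP2C+/- clones (log2 1.93, SE 0.206, adjusted p = 0.000221). NEIL2, a glycosylase of oxidised bases, was at 13.4 and 20.3 CPM in the parental samples, at 31.2 and 33.6 CPM in E3 and C10, at 19.7 CPM in H9-A4 and at 33.8 to 39.0 CPM in the other DIP2C+/- clones. It rose by 0.94 (SE 0.211, edgeR adjusted p = 0.0287) and 1.13 (SE 0.190, adjusted p = 0.00478) on the log2 scale without H9-A4. GADD45G, at 2.98 and 2.14 CPM in the parental samples and 0.322 to 0.709 CPM in the 6 clones, was lower by a log2 fold change of -2.24 (SE 0.481, edgeR adjusted p = 0.0164) in DIP2C+/- clones without H9-A4, in which it was at 2.15 CPM. The GADD45G levels of the 6 clones were near the limit of detection (0.148 to 0.193 CPM), so the size of this change rests on few counts. With all 9 samples the adjusted p of these 3 genes was between 0.318 and 0.402 in both comparisons with parental cells by edgeR. The Wald test on all 9 samples called GADD45A in both (adjusted p = 0.0345 and 0.00983) and NEIL2 in DIP2C+/- clones (adjusted p = 0.0426), and the fit of the DIP2C-/- and parental samples only called all 3.

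Genes that promoter methylation is known to keep silent in colorectal lines or in somatic cells were mostly near the limit of detection. Of 10 listed, 5 passed the filter and 1 was called higher without H9-A4, where 2.32% (DIP2C-/-) and 4.37% (DIP2C+/-) of all genes were called higher. CDKN2A, which encodes the cell cycle inhibitors p16 and p14, was at 1.21 and 1.67 CPM in the parental samples, at 14.8 and 24.9 CPM in E3 and C10, at 0.113 CPM in H9-A4, which is under the limit of detection, and at 13.1 to 23.7 CPM in the other DIP2C+/- clones. It rose 13.7-fold in DIP2C-/- (log2 3.78, SE 0.378, edgeR adjusted p = 0.000248) and 12.9-fold in DIP2C+/- clones (log2 3.69, SE 0.357, adjusted p = 0.000121) without H9-A4, and was not called by edgeR with all 9 samples (adjusted p = 0.337 and 0.391). Methylation of these promoters was not analysed here.

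**Figure D5:**
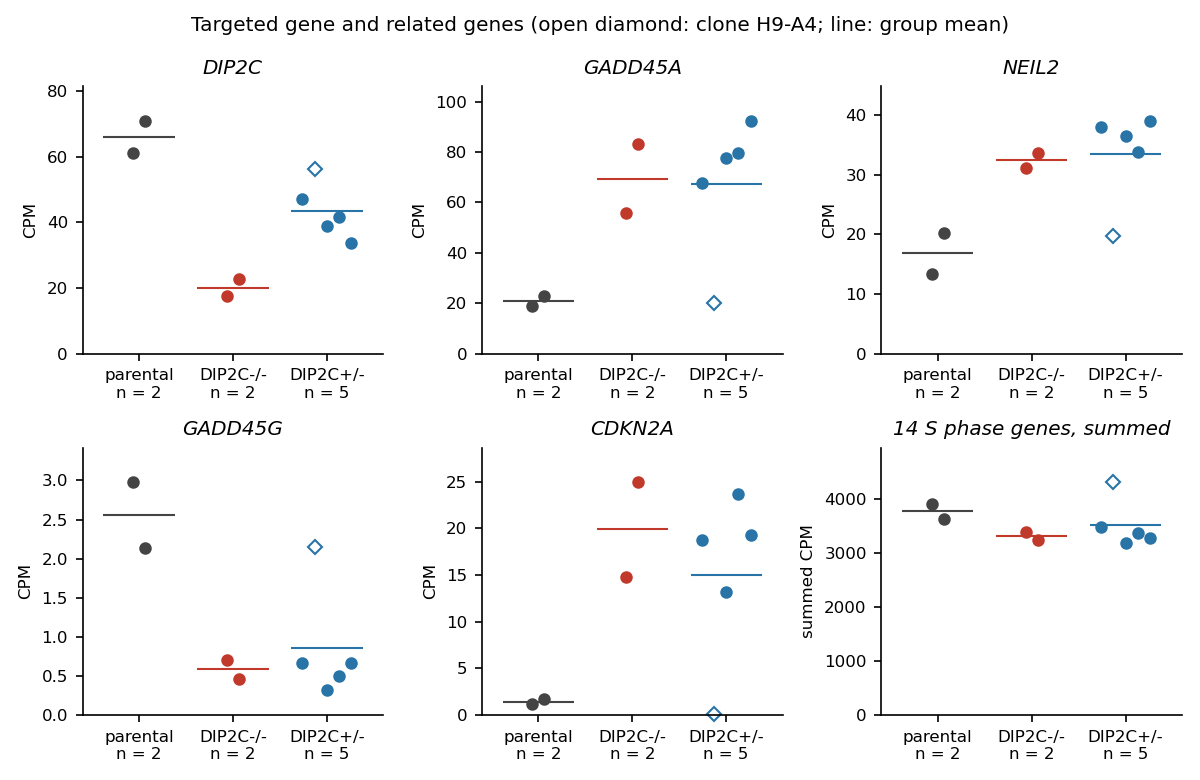
CPM of the targeted gene DIP2C, of GADD45A, NEIL2, GADD45G and CDKN2A, and the summed CPM of 14 S phase genes in every sample, with a line at each group mean and an open diamond for clone H9-A4. H9-A4 lies with the parental samples for GADD45A, NEIL2 and GADD45G, is the highest sample for the S phase sum at 4310 CPM and the lowest for CDKN2A at 0.113 CPM.

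For each of the 9 genes the most alike genes over the 9 samples were listed by Pearson's r of log2 CPM among genes tested with a mean of at least 10 CPM, as a description of shared libraries. DNMT3B was most like CDCA8, a subunit of the chromosomal passenger complex of mitosis (r = 0.988), and TNFRSF21, a death receptor (r = 0.982). TET3 was most like FBXO21 (r = 0.99) and ARID5B (r = 0.988), and for DNMT3A the centriole gene CENPJ was among the most alike (r = 0.976). DNMT1 was most like DCTN1, a dynactin subunit (r = 0.971), and RAI1 (r = 0.969). UHRF1 was most like EHBP1L1 (r = 0.947) and the nonmuscle myosin gene MYH9 (r = 0.913), TET2 like LRRC40 (r = 0.946) and STRBP (r = 0.933), and TDG like ZNF35 (r = 0.977) and ERRFI1 (r = 0.974). MBD2 was most like ZNF91 (r = 0.973) and C11orf54 (r = 0.936), and TET1 like COL5A3 (r = 0.866) and C1orf21 (r = 0.841), near the limit of detection.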

How the data were processed

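RNA from 9 RKO samples was sequenced by the authors on the Ion Proton system, aligned to hg19 with TopHat2 2.0.4 and quantified with Cufflinks (2.2.1 in the submitters' processing notes). The tables the authors deposited hold estimated counts by gene symbol, and how the authors derived them from Cufflinks is not given in the sources used here. Low values were whole multiples of 1 step per sample (97.8 to 98.4% of values up to 60, within 0.02 of a whole number of steps), so they look like counts scaled per sample. A test for whole counts had been planned, and the values were rounded instead.

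Genes were kept by filterByExpr and fitted in edgeR 4.0.16 (R 4.3.3) with TMM factors, 1 coefficient per genotype and the quasi-likelihood F test. A call was a Benjamini-Hochberg adjusted p under 0.05 over all genes tested, with no fold minimum. CPM used TMM-scaled totals. DESeq2 1.42.0 gave an alternative test. Scripts were tested on simulated counts. The 9 genes, the lists and the interest in H9-A4 were chosen with earlier results of these data known. Named genes were the 9 members, DIP2C, up to 3 called genes per list with the largest changes, and the 2 genes most like each member. Values of some genes under this rule are not reported here.

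Per-gene positions used for lengths are from GENCODE 44 on GRCh37, which has the coordinates of hg19, and promoters from RefSeq on GRCh38.p14, given in that build only. DNMT3A, TET1 and TDG have annotated processed pseudogenes (DNMT3AP1, TET1P1 and TDGP1) and TET2 an antisense gene (TET2-AS1). How reads shared with these were counted, and whether strand was used, is not given in the sources used here. No sequencing batch is named in the labels. Methylation arrays were not analysed here.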

Additional observations from a re-analysis of the deposited data

Results flagged for a closer look

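Within the 5 DIP2C+/- clones, 4 of 11 quantities examined (the 9 genes, DIP2C and the summed S phase genes) had 1 sample far from the rest by Dixon's test (critical value 0.71), and in each it was H9-A4. DNMT3A was at 21.9 CPM in that clone (ratio of gap to range 0.77), DNMT3B at 23.6 CPM (0.717), TET3 at 122 CPM (0.767) and the summed S phase genes at 4310 CPM (0.727). The quantities share 1 library and are not independent, and chance flags about 1 in 20 groups. The cause was not tested. The labels give H9-A4 the same genotype as the other 4 clones, and its DIP2C level was the highest of the 7 clones.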

How the results depend on the processing

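The log2 fold changes of DNMT3A, DNMT3B and TET3 against parental RKO stayed below 0 under all 17 settings in both genotypes, from -1.02 to -0.837, -1.48 to -1.17 and -0.703 to -0.549 in DIP2C-/- clones and from -1.13 to -0.533, -1.27 to -0.813 and -0.628 to -0.359 in DIP2C+/- clones. They were called only without H9-A4 and in the fit of DIP2C-/- and parental samples alone. In the latter fit the values were -0.92, -1.32 and -0.63. No other member was called under any setting. The number of genes called depended on the fit. In DIP2C-/- clones, 1 gene was lower and 0 higher, against 191 and 106 with the DESeq2 Wald test, 981 and 826 with only the compared groups, 3 lower with no filter, 0 lower with at least 10 counts in every sample, and 1 to 376 lower and 0 to 357 higher with 1 sample left out. In DIP2C+/- clones, 15 were lower and 0 higher, against 93 and 100 with the Wald test, 8 lower with at least 10 counts, 8 lower with only the compared groups, 1 higher with no filter, and 1 to 551 lower and 0 to 673 higher with 1 sample left out. Between the genotypes 0 were called, against 6 higher with the Wald test, 1 with only the compared groups and 0 to 3 with 1 sample left out. The upper ends against parental came from leaving out H9-A4, which removes a sample from the estimate of the spread.

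Small differences changed sign without being called. UHRF1 in DIP2C-/- clones came to 0.00343 with at least 10 counts, and MBD2 to -0.0179 with no filter, -0.00523 with only the compared groups and -0.00198 with values divided by the step. UHRF1 between the genotypes came to 0.00476 with no filter. With 1 sample left out, values of both signs were found in DIP2C-/- clones for UHRF1 (-0.109 to 0.0616), TET1 (-0.538 to 0.806) and MBD2 (-0.196 to 0.17), in DIP2C+/- clones for UHRF1 (-0.119 to 0.057), and between the genotypes for DNMT1 (-0.205 to 0.111), DNMT3A (-0.221 to 0.379), UHRF1 (-0.0994 to 0.0812), TET1 (-1.04 to 0.305), TET3 (-0.0142 to 0.244) and MBD2 (-0.305 to 0.0613). The cause was not tested. No paired analysis was possible because only the parental titles carry numbers. With 2 parental samples and 1 library per clone, the number of samples limits every comparison, and depth limits TET1 most, with 3.46 to 15.02 estimated counts.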

Other observations

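Some genes of the lists varied between clones without being called in edgeR with all samples or without H9-A4, and were picked here after their values were seen. MBD4, a methyl-CpG reader with glycosylase activity, was at 27.4 and 31.2 CPM in the parental samples, at 17.3 and 20.2 CPM in the DIP2C-/- clones, at 20.02 to 25.3 CPM in 4 of the DIP2C+/- clones and at 32.0 CPM in H9-A4. HDAC2, a deacetylase of NuRD, was at 75.1 and 82.8 CPM in the parental samples, at 54.0 to 70.0 CPM in the 6 clones other than H9-A4 and at 81.8 CPM in H9-A4. Both were below both parental samples in the same 6 clones as DNMT3A, DNMT3B and TET3, as were 11.5% of all genes tested. HDAC1, the other NuRD deacetylase, did not follow them. It was at 278 and 260 CPM in the parental samples, at 228 to 261 CPM in the 6 clones, of which A9-A12 and G1-A5 lay between the parental samples, and at 151 CPM in H9-A4, the lowest sample.

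SHMT2, the mitochondrial serine hydroxymethyltransferase of one-carbon metabolism, split the DIP2C+/- clones along another line. It was at 353 and 372 CPM in the parental samples, at 222 and 217 CPM in E3 and C10, at 249 CPM in A6-C9 and 252 CPM in F6-A7, and at 388 to 400.2 CPM in A9-A12, G1-A5 and H9-A4. Among pairs of DIP2C+/- clones, A6-C9 and F6-A7 also had the lowest chi-square per degree of freedom across genes, 24.7, where the other pairs of this group had 49.3 to 138. How the clones are related was not tested.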
